A study of Homo sapiens with 78 samples.

Results

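The genes of proximal T cell receptor (TCR) signalling were followed in single A375 and Jurkat cells: CD3D, CD3E, CD3G, CD247, LCK, ZAP70, LAT, CD28 and PTPRC. They were chosen by symbol, and the estimated counts and TPM of their Ensembl transcripts that GENCODE v44 also holds were summed in every well. They are 9 of 62745 genes and unmatched transcripts in the deposited tables, and 77 transcripts of theirs were summed. Jurkat (clone E6-1) is a human T cell leukemia line and A375 a human melanoma line, and the labels give no treatment for either. Single cells were sorted by FACS, A375 into PBS through an anti-CD47 gate and Jurkat into a lysis solution through an anti-CD81 gate. Cell line, gate and sort buffer therefore cannot be told apart. Libraries of total RNA came from one of 2 strand-preserving kits by the same maker, a pico-input SMARTer kit for mammalian RNA (#634413) and the SMART-Seq Stranded Kit (#634444), with 18 Jurkat and 21 A375 wells for each.

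The TCR itself has no enzyme activity. Its antigen-binding chains are held at the surface by CD3D, CD3E, CD3G and CD247 (the zeta chain), whose cytoplasmic tails carry the tyrosine motifs known as ITAMs. LCK, a kinase of the Src family, phosphorylates these motifs. ZAP70 docks on the phosphorylated motifs and in turn phosphorylates the adaptor LAT, which gathers the downstream effectors. CD28 delivers the costimulatory signal. PTPRC (CD45), the abundant receptor phosphatase of blood cells, removes the inhibitory phosphate of LCK, and its extracellular part varies by alternative splicing.

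Total counts ranged from 413959 to 1443975 per Jurkat well and from 909 to 2567265 per A375 well, where 4 wells with #634413 and 5 with #634444 stayed under 200000 counts. As summed lists, the markers followed the labels. The summed level of 11 T lineage markers lay between 1220 and 4724 CPM (counts scaled to the well's total without spikes) in the Jurkat wells and between 0 and 106 CPM in the A375 wells. The highest of these markers in Jurkat were LEF1, TCF7 and BCL11B, of which LEF1 was also read in 27 of the 42 A375 wells (37.98 and 27.8 CPM) and TCF7 in 15. GATA3, CD6, CD7 and TRBC1 had counts in 9, 8, 2 and 1 A375 wells, and TRAC, TRBC2, CD2, CD5 and BCL11B had 0 counts in all of them. The summed level of 11 melanoma line markers lay between 0 and 51.2 CPM in Jurkat and between 0 and 3014 CPM in A375, at 0 in 2 and 4 of the 21 A375 wells with #634413 and #634444. Of these markers SOX10 reached 289 and 287 CPM in the A375 wells, while MITF was at 10.5 and 15.6 CPM and the pigment cell marker MLANA at 1.05 and 0.47 CPM with #634413 and #634444. In Jurkat MLANA stood at 0 and 1.11 CPM, from 16 counts, so with #634444 it went against the label. PMEL had 0.07 CPM in A375 and 0 in Jurkat with that kit. S100B, PMEL, TYR, DCT, CSPG4 and CAV1 had 3 counts or fewer over all Jurkat wells. Each well held 1 cell and the labels name no separate cultures, so each group counted as 1 sample and no test between groups was made. Intervals are exact 95% intervals that cover counting error only, and the libraries carried no molecular identifiers.

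All 9 genes were at least 2-fold higher in Jurkat than in A375 with both kits. For comparison, 22.3% of all genes that passed a filter on low counts were at least 2-fold higher in Jurkat with #634413 and 20.3% with #634444. To pass, a gene needed 5 counts or more in no fewer than 25% of wells. All 9 genes passed it, each through its Jurkat wells, so that a large difference was built into their passing. The median log2 fold of the 9 genes was 8.97 with #634413 and 7.999 with #634444, beside a median of 0.01 and -0.01 over all genes that passed. For 5 of the 9 genes with #634413 (CD3D, CD3E, LCK, ZAP70 and PTPRC) the lowest Jurkat well lay above the highest A375 well, which was the case for 0.521% of all genes. With #634444 this held for 7 of the 9 genes, all but CD247 and LCK, beside 1.05% of all genes.

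**Figure D1:**
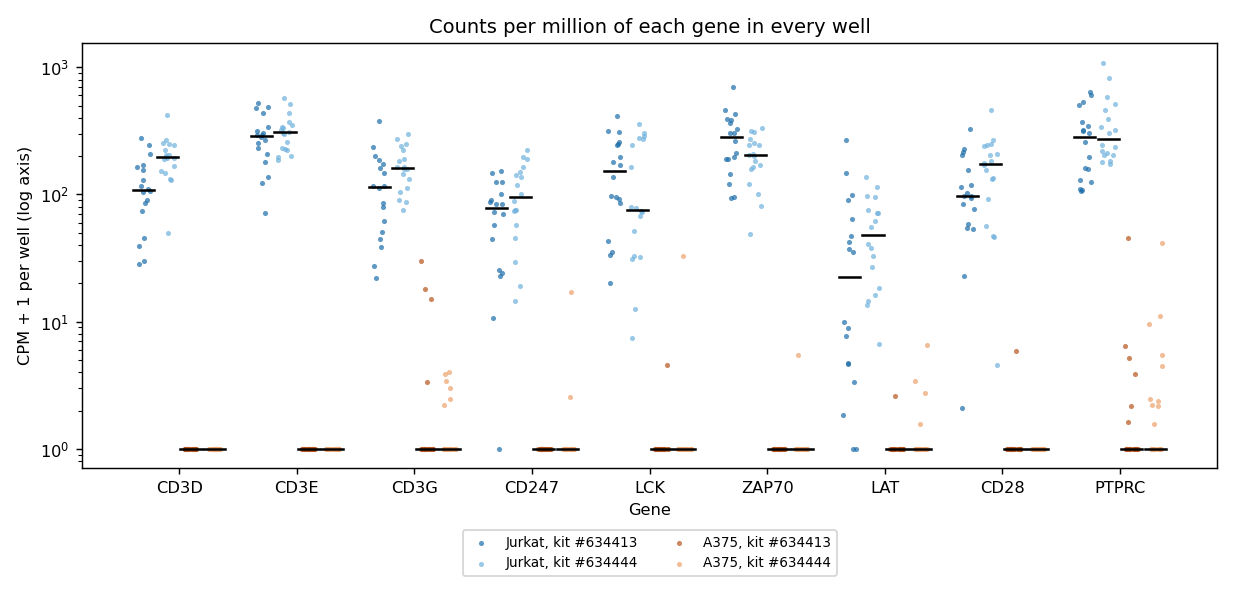
Each point is 1 well, the y axis gives CPM + 1 on a log axis, and black lines mark medians of the 18 Jurkat or 21 A375 wells of each kit. The median of the A375 wells is 0 CPM for every gene, and the A375 points off the baseline belong mainly to PTPRC and CD3G.

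The CD3 chains were read in nearly every Jurkat cell. CD3D (ENSG00000167286, GRCh38 chr11:118339075-118342705, minus strand), which pairs with CD3E, ranged from 27.5 through a median of 108 to 275 CPM with #634413 and from 49.2 through 194.6 to 422 CPM with #634444. No A375 well held a count of it, so the summed level was at least 774-fold and 1005-fold higher in Jurkat, counting A375 at a floor of 3 counts per group. CD3E (ENSG00000198851, chr11:118304730-118316175, plus strand), the chain shared by both CD3 dimers, ranged from 70.8 through 287 to 523 CPM and from 184 through 307 to 575 CPM. It was also at 0 counts in all A375 wells and at least 1753-fold and 1565-fold higher in Jurkat. Both genes separated the cell lines without overlap.

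CD3G (ENSG00000160654, chr11:118344344-118355161, plus strand), the partner of CD3E in the other dimer, ranged from 21.2 through 113 to 376 CPM with #634413 and from 74.1 through 161 to 299 CPM with #634444. It was the only CD3 chain with A375 counts with #634413, at 55 counts over 4 wells, with up to 31 counts in a well. Its summed level was 38.9-fold higher in Jurkat (29.8 to 51.8) with #634413 and 256-fold (139 to 535) with #634444, where A375 held 10.02 counts. These folds rest on few wells. Without the A375 well with the most CD3G counts, a check added after the data were seen, they were 78.3-fold and 452-fold, and by mean TPM the log2 fold with #634413 was 6.91 in place of 5.28. With #634413 the highest A375 well by CPM, at 28.7 CPM from 8 counts, passed the lowest Jurkat well. It was not the well with 31 counts. Of its total, 48.5% fell on the ribosomal DNA (rDNA) repeat unit, beside a median of 11.2% over the A375 wells of that kit. The next A375 well, at 17.2 CPM, lay below every Jurkat well. CD247 (ENSG00000198821, chr1:167425027-167518640, minus strand), which carries more ITAMs than the other chains, ranged from 0 through 77.4 to 151 CPM and from 13.4 through 93.9 to 221 CPM. It was read in 17 of 18 Jurkat wells with #634413, in none of the 21 A375 wells with that kit and in 2 of 21 with #634444. Since 1 Jurkat well was at 0 with #634413 and 1 A375 well reached 16.3 CPM with #634444, CD247 overlapped between cell lines with both kits, although its summed level was at least 470-fold and 87.4-fold (55.1 to 148) higher in Jurkat. With #634444, 14 of the 18 A375 counts lay in 1 well, and without it CD247 was 370-fold higher. CD247 overlaps other genes on both strands, and the stranded counting does not part reads of genes on the same strand.

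Of the kinases, LCK (ENSG00000182866, chr1:32251244-32286165, plus strand) had a wide spread. It ranged from 19.03 through 153 to 412 CPM with #634413 and from 6.48 through 74.9 to 358 CPM with #634444. Its summed counts were often not whole numbers, such as 24.5 and 2.90 in the lowest wells, so some reads were shared with targets outside the sum. The part of this in the spread of LCK and in its transcript shares was not tested. The A375 wells held 1 count and 16 counts, the latter in a single well at 31.9 CPM that lay above the lowest Jurkat wells. The summed level was at least 946-fold higher in Jurkat with #634413 and 132-fold (81.3 to 232) with #634444, or at least 682-fold without that A375 well. ZAP70 (ENSG00000115085, chr2:97713576-97739862, plus strand) ranged from 92.8 through 283 to 697 CPM and from 47.6 through 202 to 330 CPM. Its A375 wells held 0 and 3 counts, and the cell lines did not overlap with either kit.

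LAT (ENSG00000213658, chr16:28984826-28990784, plus strand) was the member with the fewest counts, 851 and 813 over all Jurkat wells. With #634413 it ranged from under 1 count in 2 wells through a median of 21.5 to 266 CPM, and with #634444 from 5.68 through 47.1 to 137 CPM. One count or more was found in 16 of 18 and 18 of 18 Jurkat wells, against 1 and 4 of the 21 A375 wells. With #634444 the summed level was 117-fold higher in Jurkat, and 251-fold without the A375 well that held 4 of the 7.17 counts. After each well was thinned to 200000 counts, 12 of 18 Jurkat wells with #634413 (66.7%, 41.0 to 86.7) still held a LAT read, whereas CD3D, CD3E, CD3G, LCK, ZAP70 and PTPRC were still read in 18 of 18 with both kits. LAT shares its strand with an overlapping long non-coding RNA, so some reads could belong to either.

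CD28 (ENSG00000178562, chr2:203706475-203738912, plus strand) ranged from 1.09 through 95.8 to 326 CPM with #634413 and from 3.56 through 172 to 459 CPM with #634444. In each kit the lowest well held under 3 counts, and with #634413 it lay below the highest A375 well. A375 held 4 counts with #634413, all in 1 well, and 0 with #634444. PTPRC (ENSG00000081237, chr1:198638457-198757476, plus strand) ranged from 105 through 280 to 632 CPM and from 171 through 274 to 1084 CPM. The A375 wells held 23 and 88.2 PTPRC counts, more than of any other member with #634444, and reached at most 44.7 CPM. The well at 44.7 CPM, with #634413, held 7 PTPRC counts in a total of 156660, of which 44.5% fell on the rDNA repeat unit. The summed level was 233-fold (155 to 367) and 67.0-fold (54.4 to 83.9) higher in Jurkat. In A375 42 of the 88.2 counts with #634444 lay in 1 well, and without it the fold was 119. By mean TPM the log2 fold of PTPRC was 5.82 and 5.53, in place of 7.86 and 6.07.

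All 9 genes had at least 1 count in 15 of 18 Jurkat wells with #634413 and in 18 of 18 with #634444. The summed level of the 9 genes was 1512 ± 309 CPM (SD, n = 18 wells) with #634413 and 1717 ± 488 CPM (n = 18) with #634444. In A375, 11 of 21 and 8 of 21 wells held a full count of none of them, and no A375 well held more than 4 of the 9 genes. The 8 wells included all 5 under 200000 counts with #634444, and the 11 wells included those of 909, 1331 and 153648 counts. In wells with so few counts the lack of a gene says little.

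The few A375 counts fell on a narrow set of transcripts. Of 77 transcripts, 11 held the 227 A375 counts. All 111 PTPRC counts were assigned to PTPRC-206, a short transcript classed as protein coding that ends in a last exon of 1154 bases at chr1:198694018-198695171 and took 0.948% of the PTPRC counts in Jurkat. All 17 LCK counts lay on LCK-208 and all 3 ZAP70 counts on ZAP70-204, both of the retained intron class, which held 1.60% and 7.53% of the counts of these genes in Jurkat. Of the 65.02 CD3G counts, 54.02 lay on the protein-coding CD3G-202 and the rest on CD3G-206, and the 4 CD28 counts lay on the protein-coding CD28-202. In all, 41.2 of the 227 counts were on the retained intron class. The 11 T lineage markers held 872 and 520 counts in 15 and 16 of the 21 A375 wells with #634413 and #634444, and their part in these values was not tested. Most of these marker counts, 1099 over both kits, were of LEF1, while TRAC, TRBC2, CD2, CD5 and BCL11B had 0.

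Between genes, levels can be set side by side only per length. In median TPM, which corrects for length, over the Jurkat wells, LCK (138), CD3E (130), CD3D (129), ZAP70 (105) and CD3G (87.5) led with #634413, before PTPRC (38.7), CD247 (32.9), LAT (21.1) and CD28 (19.1). With #634444 the order was CD3D (204), CD3E (143), CD3G (112), LCK (77.3), PTPRC (77.02), ZAP70 (56.8), CD247 (42.9), LAT (42.1) and CD28 (30.8). The quartile ranges of every pair of neighbours in both orders overlapped, so that no neighbour was set apart from the next by more than the spread between wells. LAT and CD28 were last with both kits. TPM gives much weight to short transcripts, and in CD3G the 234-base CD3G-204 made up 64.5% and 41.4% of the gene's TPM from 9.56% and 4.34% of its counts.

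None of the 9 genes differed by 2-fold or more between the kits in Jurkat on summed counts, beside 13.4% of all genes that did so in either direction, and nothing is read from a count so near that share. Of the 9 genes, 7 were higher with #634444 and LCK and ZAP70 were lower, over a range of summed ratios from 0.685 for ZAP70 (0.654 to 0.717) to 1.61 for CD28 (1.52 to 1.71). The wells of the kits overlapped for all 9 genes. The difference in mean CPM passed the larger of the kits' SDs for CD3D alone, at 200 ± 76.7 CPM with #634444 and 120 ± 71.6 CPM with #634413 (SD, n = 18 wells each). By the median well, LCK stood at 0.490 times and LAT at 2.19 times its #634413 level with #634444, so that both passed 2-fold on that measure. By mean TPM ZAP70 passed it, lower with #634444 by 1.04 on the log2 scale.

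Isoform use is first shown for PTPRC, whose exons A, B and C are alternatively spliced and code for part of the extracellular domain. The form without them is known as RO and marks activated and memory T cells, whereas forms with exon A mark naive T cells. Exons A and C are shown because the transcripts counted below differ by them. They lie at chr1:198696712-198696909 (A, 198 bases) and chr1:198702387-198702530 (C, 144 bases) on the plus strand of GRCh38, and both are wholly coding in PTPRC-209.
PTPRC exon A: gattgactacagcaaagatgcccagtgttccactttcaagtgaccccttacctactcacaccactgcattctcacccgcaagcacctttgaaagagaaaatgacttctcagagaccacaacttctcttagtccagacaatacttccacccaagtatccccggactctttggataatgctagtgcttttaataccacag
PTPRC exon C: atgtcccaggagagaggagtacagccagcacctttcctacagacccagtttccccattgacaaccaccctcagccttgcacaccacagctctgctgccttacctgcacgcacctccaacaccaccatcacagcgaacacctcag

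Counts on transcripts that span this stretch were split by the exons they hold. The RO form, mainly PTPRC-201, took 73.8% of them with #634413 and 44.9% with #634444. PTPRC-209, with exons A, B and C (RABC), took 15% and 42.5%. Forms with B alone or with B and C took 5.28% and 5.92% with #634413 and 3.42% and 7.46% with #634444, where a form with A and B took 1.78%. The pooled shares hid a wide spread between cells. With #634413 the RO share was 50% or more in 13 of 18 wells (median 97.0%), and the RABC form held at least 1% in 3 wells, in each of which it was the main form. With #634444 the RO share was 50% or more in 11 of 18 wells (median 62.05%) and the RABC form held at least 1% in 10 wells. Shares from 0 or near it to 100% occurred with both kits, so the kits overlapped over the whole range. The well with the most PTPRC counts weighed on the pooled value with #634444. Without it the RO share was 59.6% and the RABC share 32.8%, a check added after the data were seen. Kallisto assigns reads shared by transcripts by likelihood, and the number of reads that touch the variable exons is not given in the tables.

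**Figure D2:**
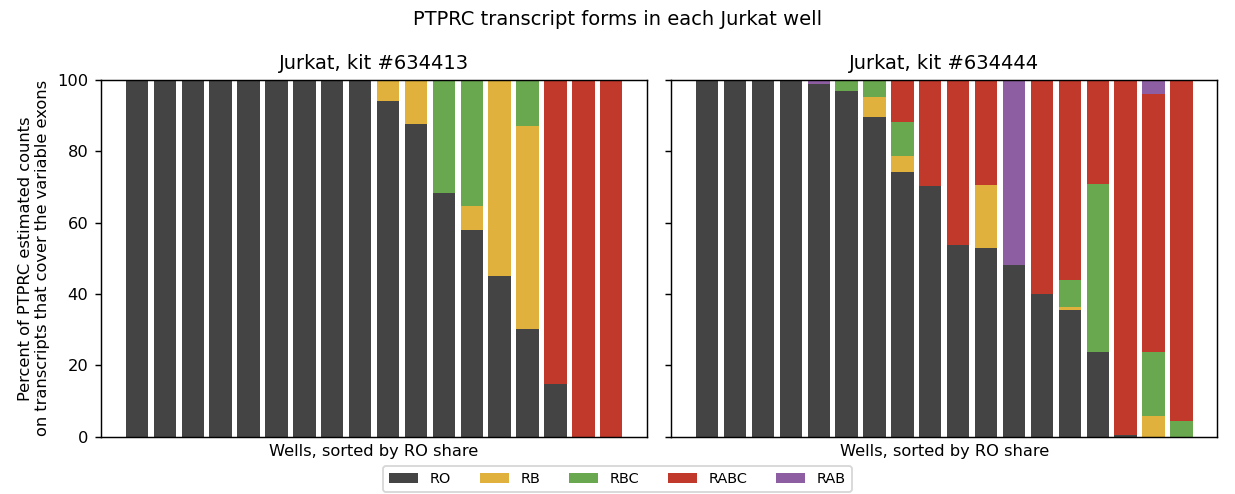
Each bar is 1 Jurkat well, 18 for each kit, sorted by its RO share. The y axis gives the percent of PTPRC estimated counts on transcripts that cover the variable exons, coloured by the exons held (RO holds none of A, B and C). RO made up 50% or more in 13 wells with #634413 and 11 with #634444, and RABC appears in 3 and 10 wells.

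CD3D and CD3G each have a transcript that skips an exon of 132 bases. In both genes this exon holds the membrane span, and both exons are shown for that reason. The CD3D exon lies at chr11:118339775-118339906 on the minus strand and covers residues 92 to 136 of the CD3D-201 protein. The CD3G exon lies at chr11:118350552-118350683 on the plus strand and covers residues 103 to 147 of the CD3G-206 protein. Without gaps, 84 of the 132 bases are identical (63.6%).
CD3D exon absent from CD3D-202: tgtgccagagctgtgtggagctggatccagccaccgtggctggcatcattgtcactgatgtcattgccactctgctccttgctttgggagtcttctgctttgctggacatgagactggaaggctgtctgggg
CD3G exon absent from CD3G-202: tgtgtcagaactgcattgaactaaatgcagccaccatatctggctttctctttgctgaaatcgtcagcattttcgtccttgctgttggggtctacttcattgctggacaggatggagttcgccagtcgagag

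CD3D-202, without the exon, took 29.3% of the CD3D counts with #634413 and 11.1% with #634444, and full-length CD3D-201 took 68.99% and 87.5%. Over wells with at least 20 counts of the gene, the median CD3D-202 share was 16.9% (n = 17 wells) and 12.9% (n = 18 wells), with quartiles of 0 to 40.8% and 1.24 to 17.8% that overlap. Corrected for length, CD3D-202 made up 45.9% and 23.999% of the CD3D TPM and CD3D-201 47.3% and 72.7%. CD3G-202 took 33.6% and 41.2% of the CD3G counts, ahead of the reference transcript CD3G-206 at 23.4% and 27.6%. By TPM these were 13.7% and 24.2% for CD3G-202 and 3.65% and 5.91% for CD3G-206, both behind CD3G-204. In the median well CD3G-202 stood at 9.65% (n = 16 wells) and 30.1% (n = 18 wells). CD3G-206 stood at 11.6% and 26.6% there, so by that measure CD3G-202 was not ahead with #634413. CD3E was carried mainly by CD3E-201, at 58.7% and 75.1%.

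CD247-201 and CD247-202 differ in the coding sequence by 3 bases at the start of an exon, where the acceptor site can shift. The exon is shown as it reads in CD247-201, at chr1:167435399-167435434 on the minus strand, with the bases absent from CD247-202 in capitals.
CD247 exon: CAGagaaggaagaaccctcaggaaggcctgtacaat
CD247-201 took 48.2% of the CD247 counts with #634413 and 42.9% with #634444, and CD247-202 took 28.8% and 49.2%. Over the wells with at least 20 CD247 counts the quartiles of the CD247-202 share ran from 0 to 49.1% and from 11.6 to 80.02%, which overlap. In the median well CD247-201 stood at 80.5% and CD247-202 at 0% with #634413 (n = 15 wells). With #634444 these were 36.6% and 34.2% (n = 17 wells), so with that kit the order differed from the pooled one.

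LCK showed the largest shift in transcript shares between kits among the 29 transcripts that reached 10% of their gene with either kit. LCK-212 held 54.4% with #634413 and 14.3% with #634444, and LCK-202 held 6.42% and 47.3%. LCK-202 had 1% or more of the LCK counts in 3 of 18 wells with #634413 and in 6 of 15 with #634444, so these shares rest on few wells. By TPM LCK-212 held 44.1% and 15.04%, and LCK-202 2.67% and 23.1%. LCK-212 measures 1060 bases in the deposited tables and 1947 in GENCODE v44, and its exons are not described. LCK is known to have an upstream and a downstream promoter. LCK-202 starts at chr1:32251265 upstream and LCK-201, at 15.4% and 9.501%, at chr1:32274132. The 250 bases before the upstream start (GRCh38.p14, chr1:32251015-32251264, plus strand, RefSeq) are shown with the matches to TGTGGT (a RUNX core) and CAGGAAG (an ETS core) in capitals.
LCK upstream promoter: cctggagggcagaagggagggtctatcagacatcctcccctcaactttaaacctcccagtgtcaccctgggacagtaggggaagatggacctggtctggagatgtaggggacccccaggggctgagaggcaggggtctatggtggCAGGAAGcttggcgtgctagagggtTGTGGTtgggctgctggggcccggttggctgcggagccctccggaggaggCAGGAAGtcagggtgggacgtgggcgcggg
Promoters of 7 of the 9 genes were matched, all but CD3E and CD3G. On either strand, TGTGGT was found in 3 of 7 (CD3D, LCK and CD28) and in 10.98% of 35116 promoters of the same length. CAGGAAG was found in 4 of 7 (CD247, LCK, ZAP70 and PTPRC) and in 10.5% of all. The E-box CAGCTG was in the ZAP70 promoter alone and in 13.99% of all. The search for AGATAA, bound by GATA factors and present in 9.17% of all, found none in the 7. Neither did that for TATAAA, the TATA box, present in 10.7% of all. The same held for CTTTGAA, bound by TCF and LEF factors, present in 3.805% of all. A match describes the letters and not binding.

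CD28-202 lacks exon 2 of CD28-201, 357 bases at chr2:203726633-203726989 that code for the immunoglobulin domain which binds the ligands. It took 40.9% of the CD28 counts with #634413 and 19.6% with #634444, against 42.7% and 71.9% for CD28-201 and 16.4% and 8.46% for the 705-base CD28-203. By TPM the order changed, with CD28-203 first at 61.6% and 45.04%, CD28-202 at 23.4% and 13.5% and CD28-201 at 15.03% and 41.5%. Wells were often of one kind. With #634413 CD28-202 held 50% or more in 8 of 16 wells and CD28-201 in 6, and with #634444 these were 4 and 13 of 17 wells. ZAP70-201 took 52.8% and 70.4% of the ZAP70 counts, and transcripts of the retained intron class took 29.7% and 18.2%. By TPM that class made up 46.8% and 19.7%, and the protein coding class 47.03% and 72.7%. LAT had no leading transcript. The retained intron transcript LAT-214 was the highest with #634413 at 31.6%, and LAT-208 with #634444 at 21.1%. Among wells with at least 20 LAT counts, LAT-214 held 1% or more in 2 of 8 with #634413. LAT-208 did so in 3 of 11 with #634444. Both had a median share of 0 in these wells, so the pooled shares rest on few cells. Over all 9 genes, transcripts of the retained intron class held 12.3% of the counts with #634413 and 6.08% with #634444.

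**Figure D3:**
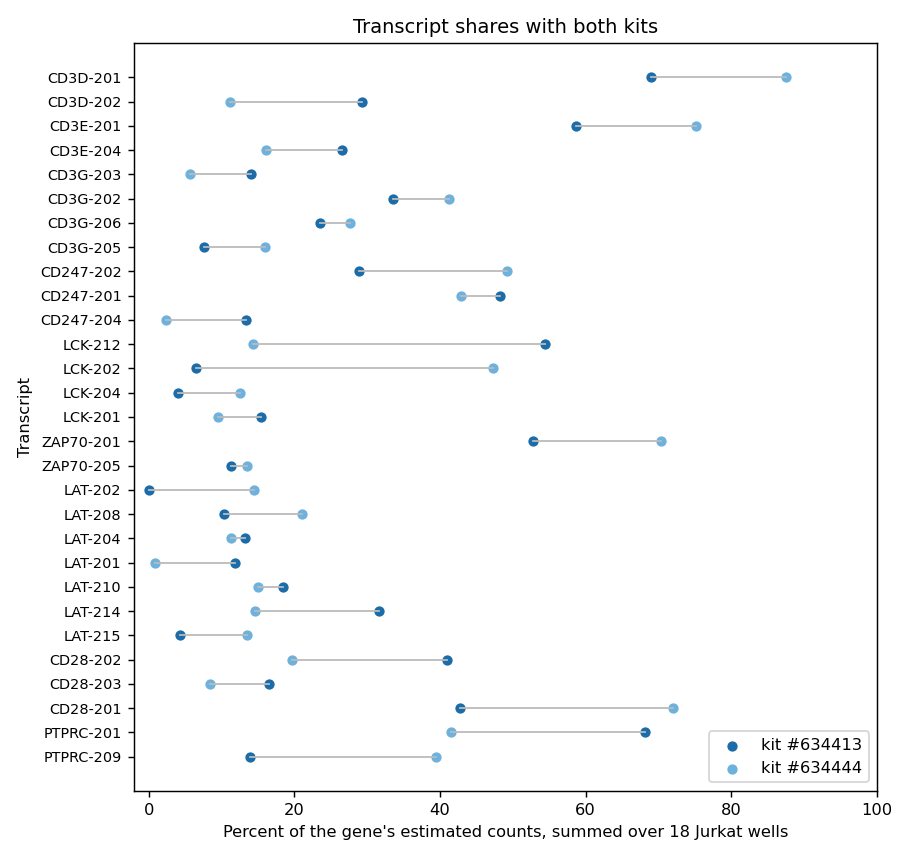
The x axis gives the percent of a gene's estimated counts, summed over 18 Jurkat wells for each kit, on each of the 29 transcripts named on the y axis. Dark points are #634413 and light points #634444. The longest gaps belong to LCK-212 and LCK-202.

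The spread between wells holds cell, amplification and counting differences, which cannot be told apart in reads without molecular identifiers. The median coefficient of variation of CPM was 0.633 with #634413 and 0.602 with #634444. At 200000 counts per well, the variance over the mean, which would be 1 for counting alone, ran from 6.87 (CD247) to 21.1 (PTPRC) with #634413 and from 4.08 (LAT) to 39 (PTPRC) with #634444. With #634444, 1 Jurkat well held 1334 of the 5747 PTPRC counts, and its part in the value of 39 was not tested. Beside other genes, 5 of the 9 genes with #634413 and 6 with #634444 lay below the median of all genes with a mean within a factor of 1.5. By definition as many genes lie below such a median as above it, so nothing is read from these counts. CD3D, CD3E, CD3G and CD247 were below the median with both kits. Of these, CD247 was close to it with #634444, at the 49.4 percentile, and CD3G stood at the 43.2 percentile with #634413. LCK and PTPRC were above the median with both kits, at the 74.1 and 92.9 percentile for LCK and at the 70.3 and 92.5 percentile for PTPRC.

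**Figure D4:**
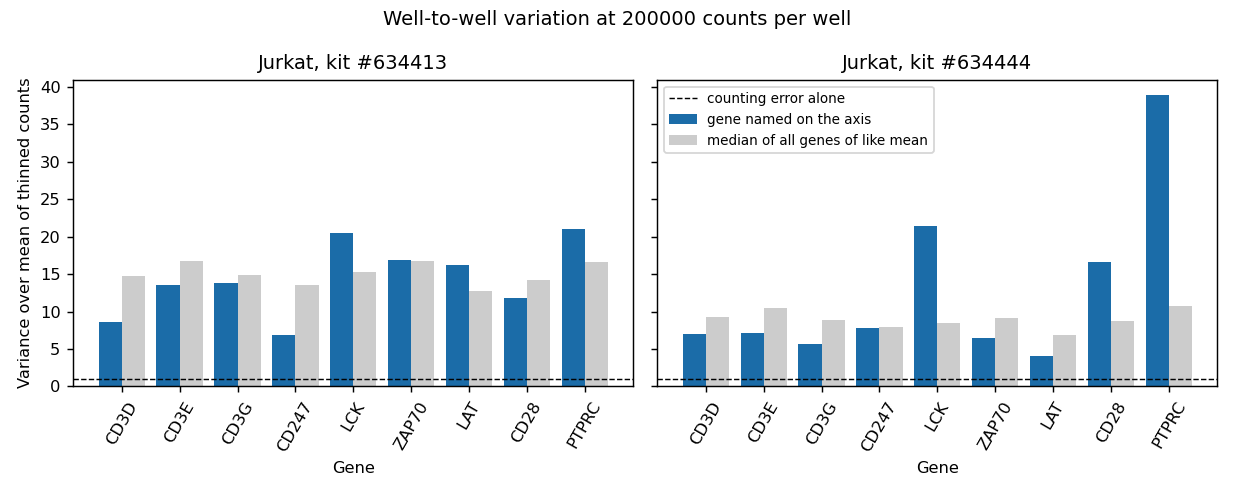
Bars give the variance over the mean of the counts of 18 Jurkat wells for each kit after thinning to 200000 counts per well, in blue for the gene and in grey for the median of all genes of like mean. The dashed line at 1 marks counting error alone. CD3D, CD3E, CD3G and CD247 lie below the grey bar with both kits, CD247 only just with #634444 (7.84 against 7.89), and PTPRC reaches 39 with #634444.

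The genes showed little common movement between cells of the line. Over 18 wells and 36 pairs of genes, Spearman's rho of CPM ranged from -0.51 to 0.46 with a median of 0.02 with #634413, and from -0.48 to 0.42 with a median of 0.12 with #634444. No pair was above 0.3 with both kits. The points share library depth and a fixed sum, and these values describe the wells only. The summed level of the 9 genes had a rho of 0.02 and 0.22 with the total count of the well. Over all 78 wells, where the difference between the cell lines dominates, the genes outside the set with a profile most like the summed level included SEPTIN6 (rho 0.86) and ITGB2 (0.85), of 11548 genes compared. ITGB2, the beta chain of leukocyte integrins, had counts in 36 of 36 Jurkat and 0 of 42 A375 wells.

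Of 60 other genes of the TCR pathway, 40 were at least 2-fold higher in Jurkat with #634413 and 45 with #634444, and 5 were at least 2-fold lower with each kit. The filter was passed by 40 and 48 of the 60, of which 30 and 37 (75% and 77.1%) were higher and 2 and 3 lower. Some, such as SLA, CD2 and SH2D1A with 0 counts in A375, passed through their Jurkat wells alone. For these a large difference was built into their passing, which limits a comparison with the share over all genes. CD2, CD5 and CD6 also stand among the T lineage markers. Over all genes that passed, 22.3% and 20.3% were higher and 24.7% and 24.6% lower. The median log2 fold of the 60 genes was 3.48 and 3.67. Among kinases, their activators and coreceptors, 6 and 7 of 9 were higher, of which 3 and 4 passed the filter. They included FYN, a Src family kinase (118 and 116 CPM in Jurkat, 39.9 and 34.2 CPM in A375), and SYK, the relative of ZAP70 (103 and 71.6 against 0.77 and 0.07 CPM).

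Of the inhibitors, 16 of 21 were higher with each kit, of which 12 and 15 passed the filter, and none lower. DGKZ, which removes diacylglycerol, was 2.59-fold and 3.26-fold higher in Jurkat. CSK, which places the inhibitory phosphate on LCK, was 2.22-fold and 2.72-fold higher. SLA, an adaptor that lowers TCR levels, stood at 139 and 162 CPM in Jurkat and at 0 counts in A375. Of the adaptors and effectors, 16 and 17 of 22 were higher, of which 13 and 16 passed. FYB1, an adaptor that links the TCR to integrins, stood at 594 and 691 CPM against 9.05 and 3.90 CPM. PLCG1, the phospholipase bound by LAT, was 2.55-fold and 1.80-fold higher, and the transcription factor gene NFATC3 1.84-fold and 2.82-fold.

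The costimulatory and coinhibitory receptors were mixed. Of 8, 2 and 5 were higher, and 2 of these passed the filter with each kit. With #634413 the 2 of 8 were close to the share of all genes. CD2, an adhesion receptor, stood at 92.2 and 105 CPM in Jurkat and at 0 counts in A375, and CD226 was 11.6-fold and 28.6-fold higher. CD96 was lower in Jurkat, at 45.1 and 69.2 CPM against 164 and 218 CPM in A375. The inhibitory receptor genes CTLA4 and BTLA had 0 and 0.72 counts over all 36 Jurkat wells.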

How the data were processed

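Single sorted A375 and Jurkat cells were profiled by stranded total RNA sequencing in 78 wells, grouped by the cell line and kit of their labels. The authors removed bases from read ends with cutadapt and quantified Ensembl v91 transcripts, extended with spike sequences, with Kallisto 0.43.1 in its stranded mode. The tables they deposited hold estimated counts, which are not normalized, and TPM, which Kallisto derives from these counts and the effective target length. STAR 2.5.3 is also named in the submitters' processing notes. Samples were pooled during library preparation in sets that the labels do not name, so no values within sets are given.

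Genes were named with GENCODE v44 by transcript identifier. Of 200206 Ensembl transcripts, 195850 were found in v44, and a transcript not found there was not added to any gene. The transcripts of the 9 genes are those of v91 that v44 also holds, and their structure is described from v44. CPM is the estimated count scaled to the well's total without spikes, the rDNA repeat unit included. Summed counts of the wells of a group were compared as ratios, with exact 95% Poisson or binomial intervals, and a group under 3 counts was set to that floor. Wells were thinned to 200000 counts for shares of wells and for variation, which left out 4 and 5 A375 wells. The named genes are the 9 genes, the 3 genes of each other list with the highest summed level in Jurkat, genes at or under the floor in Jurkat, the 3 genes most like the set, and transcripts with at least 10% of a gene's counts. Some items that the rule names are not reported here. T lineage genes named for 0 counts in A375 were picked after their values were seen. The genes and lists were chosen with earlier results of these data known. No well repeated the values of another (0 of 78 wells). Fold recovery was tested on simulated counts of genes changed 4-fold, with counting error only. The spread between wells was left out, so that check does not bear on it. Python 3.11.15, pandas 2.3.3, scipy 1.17.1, edgeR 4.0.16 (TMM sizes) and DESeq2 1.42.0 (poscounts size factors) were used, the last pair for alternatives only. Alternatives were TPM, means and medians of wells, deeper wells, no rDNA, other sizes, filters and thresholds.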

Additional observations from a re-analysis of the deposited data

How the results depend on the processing

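The counts of genes at least 2-fold higher in Jurkat stayed at 9 with both kits under TPM, means or medians of wells, deeper wells, no rDNA, TMM sizes, poscounts size factors and a 4-fold threshold. Genes without overlap between the cell lines numbered 4 and 6 by TPM and 5 and 7 in wells with at least 200000 counts. The count of genes that differ 2-fold between kits, 0 on summed counts, was 1 by mean TPM (ZAP70) and 2 by the median well (LCK and LAT). The cause was not tested. The summed level was 800.2 with #634413 and 859 with #634444 in TPM, which is a different unit from CPM. The share of Jurkat wells with every gene was 83.3% and 100% at 1 count and 44.4% and 77.8% at 10 counts, which asks for more reads. Without the well with the most PTPRC counts, the RO share was 69.4% with #634413 and 59.6% with #634444 and the RABC share 17.5% and 32.8%. Counting all genes with any count, 37.1% differed 2-fold between kits in Jurkat. For CD3G the direction between kits turned by mean TPM (log2 -0.17), and for PTPRC by the median well (-0.03). No paired analysis was possible because the values come from no test and replicate numbers only name wells. At 200000 counts per well, LAT was read in 12 of 18 Jurkat wells with #634413 and the other genes in 17 or 18. Leaving out the A375 well with the most counts of a gene, chosen after seeing the data, raised the fold of CD3G with both kits and of CD247, LCK, LAT and PTPRC with #634444 by over 1.5 times, and TPM moved several transcript shares as much, as given beside those results.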
